A study of Mus musculus with 4 samples.

Results

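Integrins and cadherins are the transmembrane receptors that hold kidney cells to their matrix and to each other, and their genes were followed across the cell clusters of the mouse kidney and between kidneys with and without past cisplatin. The members were all genes whose symbol is that of an integrin alpha or beta subunit, or Cdh followed by a number. This gave 47 of the 24468 genes in a table of 17 nucleus clusters, made up of 18 integrin alpha genes, 8 integrin beta genes and 21 cadherin genes. A table of proximal tubule nuclei held 46 of them among its 21312 genes, and the missing member was Cdh17, which had 5 UMIs (unique molecular identifiers, each marking a counted RNA molecule) over all 17 clusters.

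The treated group, Cis9w, comprised 2 kidney samples from male C57BL/6 mice that had received 8 mg/kg cisplatin, a platinum drug that injures the proximal tubule, at 4 weekly injections, with tissue taken 9 weeks after the first. The untreated group, CT9w, comprised 2 samples. Nuclei of cortex with outer medulla were profiled in a droplet 3' assay. Both tables pool nuclei, so values have no replicate spread, and no column can be assigned to an animal. How many libraries of each group the proximal tubule pools contain, 1 or 2, was not stated. The labels name the proximal tubule table under replicate 1 of both groups and the cluster table under replicate 2, so Cis9w against CT9w may be 1 library against 1.

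An integrin is a pair of an alpha and a beta chain, and the pairing sets the ligand. Pairs with alpha1, alpha2, alpha10 or alpha11 bind collagens, those with alpha3, alpha6 or alpha7 bind laminins of the basement membrane, and those with alphav, alpha5 or alpha8 bind ligands that carry the RGD motif. The alphav pairs with beta6 and beta8 release active TGF-beta from its latent complex, and the beta2 and beta7 pairs belong to leukocytes. Classical cadherins join neighbouring cells by calcium-dependent contacts and hold catenins inside the cell. Tubule epithelium is known to use E-cadherin (Cdh1), N-cadherin (Cdh2), cadherin 6 (Cdh6, K-cadherin) and the kidney-specific cadherin 16 (Cdh16).

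Promoter windows of 3 members are shown because these members carry the main patterns below. Cdh6 rose in Cis9w and was highest in the injury cluster, Itgav was also highest in that cluster, and Itgb8, a partner of Itgav, was highest in another proximal tubule cluster. Each window runs from 250 bases before to 50 bases after the annotated start in RefSeq (GRCm38.p6), on the gene's strand, and capitals mark the motifs found.
Cdh6: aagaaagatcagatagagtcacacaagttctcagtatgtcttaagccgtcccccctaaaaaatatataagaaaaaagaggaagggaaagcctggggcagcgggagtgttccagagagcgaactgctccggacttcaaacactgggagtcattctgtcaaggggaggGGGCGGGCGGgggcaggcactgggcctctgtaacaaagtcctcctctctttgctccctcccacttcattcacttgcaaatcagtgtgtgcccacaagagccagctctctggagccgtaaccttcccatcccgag
Itgav: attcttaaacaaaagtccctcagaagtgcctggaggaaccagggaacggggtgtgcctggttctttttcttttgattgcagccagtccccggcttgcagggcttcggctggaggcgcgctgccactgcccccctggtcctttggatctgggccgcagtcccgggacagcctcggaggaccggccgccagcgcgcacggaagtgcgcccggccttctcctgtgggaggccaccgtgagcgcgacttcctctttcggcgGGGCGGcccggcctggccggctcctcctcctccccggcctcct
Itgb8: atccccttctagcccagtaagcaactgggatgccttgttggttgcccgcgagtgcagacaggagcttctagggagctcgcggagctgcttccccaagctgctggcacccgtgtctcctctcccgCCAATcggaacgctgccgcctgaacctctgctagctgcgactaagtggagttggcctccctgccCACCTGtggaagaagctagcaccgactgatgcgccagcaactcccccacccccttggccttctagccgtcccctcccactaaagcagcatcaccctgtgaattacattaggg
The Cdh6 window is chr15:13173626-13173925 on the minus strand, the Itgav window chr2:83724147-83724446 on the plus strand, and the Itgb8 window chr12:119238227-119238526 on the minus strand. Their GC contents were 53%, 67.3% and 60.7%. The motifs searched on both strands were CACCTG (an E2-box), TGANTCA (AP-1), GGGCGG (a GC box), CCAAT and GGAATG (TEAD). Cdh6 held 2 overlapping GC boxes, starting 84 and 80 bases before the start, and Itgav held 1 that began 7 bases after it. Itgb8 held CACCTG at 62 bases and CCAAT at 126 bases before the RefSeq start. In the GENCODE M21 annotation Itgb8 starts farther upstream, at 119238802, so there the whole window lies inside the gene. Of all 32851 windows, 35.7% held GGGCGG, 37.4% CCAAT, 20.2% CACCTG, 14.7% GGAATG and 7.81% TGANTCA. RefSeq windows matched 29 of the 47 members, with 31 windows, of which 41.9% held GGGCGG, 25.8% CCAAT, 19.4% CACCTG, 16.1% GGAATG and 9.68% TGANTCA. These matches describe letters only.

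The pools were unequal in depth, with 8557662 UMIs in the Cis9w proximal tubule pool and 5123727 in the CT9w pool, and from 254460 (mixed-2) to 7425098 (PT-S2/S3) UMIs in the clusters. All values are normalised UMIs per nucleus averaged over a pool, called averages here. Intervals are 95% intervals from the UMI counts and cover counting error only, not differences between nuclei or animals. The p-values and log2 fold changes are those of the authors' deposited tables, made by an unnamed test. The cluster names are the authors', and the injured tubule markers Havcr1, Vcam1, Krt20, Dcdc2a and Sema5a all passed (log2 fold change of at least 1 and p under 0.05 against all other nuclei) in PT-injury/repair, the cluster named for injury. Between 4 and 5 of 5 markers passed in the clusters named for other tubule segments, endothelium, podocytes and immune cells. The stromal markers passed 5 of 5 in Mixed-1 and 0 of 5 in mixed-2. Proximal tubule markers passed 2 of 5 in PT-S1 and PT-S2 and 0 of 5 in PT-S2/S3, PT-S3-1, PT-S3-2 and PT-injury/repair. The 6 proximal tubule clusters hold 65.9% of the cluster UMIs. These markers summed to 3.08 in PT-injury/repair, against 8.76 (PT-S3-2) to 35.1 (PT-S1) in the other 5 proximal tubule clusters. Outside the proximal tubule they summed to between 0.882 (PC) and 9.21 (mixed-2), with 4.95 in Podocyte.

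In the proximal tubule of cisplatin-treated kidneys, 3 adhesion receptor genes rose and 0 fell. They were Cdh6, Cdh3, which encodes P-cadherin, and Itga6, the laminin-binding alpha6 chain. Over all genes of the authors' deposited table, p was under 0.05 with a rise for 0.995% and with a fall for 1.14%. A further 43 members did not pass, of which 26 had a deposited p of 1 and 12 had 3 or fewer UMIs in each pool. The count of 0 lower members therefore covers the deposited p-values of these pools and says little of the rare genes.

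Cdh6 had the smallest deposited p of the 3. It had 1014 UMIs in Cis9w and 88 in CT9w, which are averages of 0.331 (0.311 to 0.352) and 0.0480 (0.0385 to 0.0592). The intervals lie far apart, and the ratio was 6.90 (5.54 to 8.68), and the authors' deposited table gives p = 3.42e-11 at a log2 fold change of 2.77. Cadherin 6 is a type II cadherin of the embryonic nephron and of the adult proximal tubule. Its gene lies on chromosome 15, 13028701 to 13173675, minus strand (GENCODE M21, GRCm38), and overlaps no other annotated gene.

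Cdh3 had the larger ratio on fewer molecules. It had 112 UMIs in Cis9w and 6 in CT9w, which are averages of 0.0366 and 0.00328. The ratio was 11.2 (4.98 to 31.1), and the authors' deposited table gives a log2 fold change of 3.27 and p = 2.86e-06. P-cadherin joins basal epithelial cells in skin and breast. Cdh3 lies on chromosome 8, 106510891 to 106557297, just before its paralog Cdh1 at 106603351 to 106670246 on the same plus strand. The neighbour did not pass: Cdh1 averaged 0.189 in Cis9w and 0.193 in CT9w, a ratio of 0.982 (0.859 to 1.12).

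Itga6 was the called integrin, close to the threshold. It had 1873 UMIs in Cis9w and 592 in CT9w, averages of 0.612 (0.585 to 0.641) and 0.323 (0.298 to 0.350). The ratio was 1.89 (1.73 to 2.08), and p in the authors' deposited table was 0.0379. The alpha6 chain pairs with beta1, or with beta4 in hemidesmosomes. Itga6 overlaps the annotated genes Gm13663 and Gm13662 on its own strand and Gm17250 and Gm13739 on the other, and how the authors' counting divided such reads is not stated. Just outside the threshold stood Itga9 at p = 0.0559 and Cdh4 at p = 0.0691 in the authors' deposited table.

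**Figure D1:**
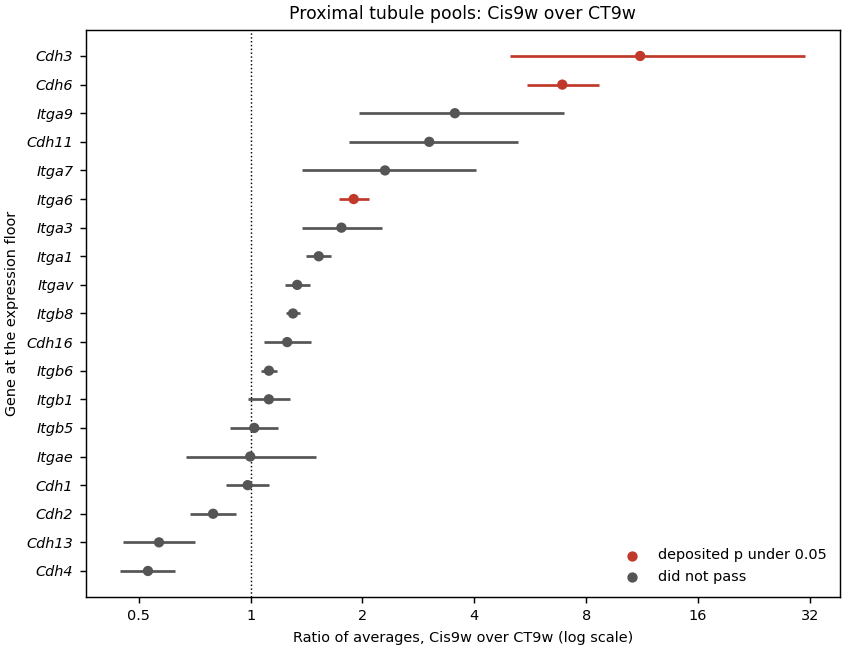
Ratio of the Cis9w average to the CT9w average in the proximal tubule pools (log axis) for the 19 members at the expression floor, with 95% counting intervals as lines. Red points mark a deposited p under 0.05. Cdh3 and Cdh6 lie farthest right at 11.2 and 6.90, and Cdh4 and Cdh13 farthest left at 0.529 and 0.567.

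Integrins at the expression floor mostly had higher averages in Cis9w, and cadherins were divided. The floor was a mean average of at least 0.0154 over both pools, the median over all genes, and 19 members reached it while 27 did not. A gene can therefore reach it through 1 pool. Cdh3, Itga9, Cdh11 and Itga7 averaged under it in CT9w (0.00328, 0.00710, 0.0104 and 0.0104) and reached it through Cis9w. No member reached it through CT9w only. All of these genes had positive log2 fold changes and intervals above 1, which raises the counts and medians that follow. Of these 19, 14 had a positive log2 fold change (73.7%, against 54.9% of all genes at the floor), with a median of 0.38, against 0.03 for all genes at the floor. Among integrins 10 of 11 were positive, with a median of 0.42, and among cadherins 4 of 8, with a median of 0.15. The counting interval of the ratio lay above 1 for 12 of the 19, below 1 for 3 and held 1 for 4. Over all genes at the floor it lay above 1 for 19.6% and below 1 for 16.1%. The 2 sets were not matched for UMI count, on which the width of an interval depends, so these shares are not a like comparison. Itgb6, for example, lay above 1 at a ratio of 1.12 on 4645 UMIs in Cis9w and 2482 in CT9w. Without the 3 called genes, 9 of 10 integrins were positive, with a median of 0.40, and 2 of 6 cadherins, with a median of -0.18. The interval then lay above 1 for 9 of 16, below 1 for 3 and held 1 for 4.

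At the floor, the 3 laminin receptor alpha chains and 1 of the 4 collagen receptor alpha chains, Itga1, had ratios above 1. Itga3, which pairs with beta1 as a laminin receptor of podocytes and tubules, had 261 UMIs in Cis9w and 89 in CT9w, a ratio of 1.76 (1.38 to 2.26; p = 0.307 in the authors' deposited table). Itga7, a laminin receptor chain known from muscle, had 73 and 19 UMIs in Cis9w and CT9w, a ratio of 2.30 (1.37 to 4.04; p = 0.217 in the authors' deposited table). Itga1, a collagen receptor chain, had 2387 and 937 UMIs in Cis9w and CT9w, a ratio of 1.53 (1.41 to 1.65). The intervals of Itga3, Itga7 and Itga1 lie above 1, and none of these 3 genes passed. Itga2, another collagen receptor chain, lay below the floor with 45 UMIs in Cis9w and 27 in CT9w, a ratio of 0.998 (0.606 to 1.67). The remaining collagen receptor chains were also below it. Itga10 had 24 UMIs in each pool, a ratio of 0.599 (0.326 to 1.10), and Itga11 had 3 in Cis9w and 2 in CT9w.

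The chains of the TGF-beta releasing integrins had ratios between 1.12 and 1.33 and did not pass. Itgav averaged 0.667 in Cis9w and 0.499 in CT9w, a ratio of 1.33 (1.23 to 1.44). Itgb8 averaged 1.88 in Cis9w and 1.45 in CT9w, a ratio of 1.30 (1.24 to 1.36). Itgb6 averaged 1.52 in Cis9w and 1.35 in CT9w, a ratio of 1.12 (1.07 to 1.18). Each interval lies above 1, and the authors' deposited p-values were 0.920, 0.962 and 1. Itgb1, the shared partner of most alpha chains, averaged 0.213 in Cis9w and 0.190 in CT9w, and its interval held 1 (0.982 to 1.28). Itgb5, another partner of alphav, also held 1, with a ratio of 1.02 (0.882 to 1.19).

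Itga9, whose product binds tenascin-C and osteopontin with beta1, had the highest ratio among uncalled members at the floor. It had 77 UMIs in Cis9w and 13 in CT9w, a ratio of 3.55 (1.96 to 6.96), and the authors' deposited log2 fold change was 1.74. Cdh11, a type II cadherin of mesenchymal cells, had 96 UMIs in Cis9w and 19 in CT9w, a ratio of 3.03 (1.84 to 5.24), and the authors' deposited log2 fold change was 1.54. Both intervals lie above 1. Cdh11 was highest in Mixed-1, and Itga9 passed in Mixed-1, Immune cells, EC1 and EC2. The 5 stromal markers summed to 0.135 in the Cis9w pool and 0.111 in the CT9w pool, with 0 of 5 called. Meis1 gave most of this sum (361 and 181 UMIs in Cis9w and CT9w), and Col1a1 had 4 UMIs in Cis9w and 0 in CT9w. The 5 endothelial markers summed to 0.211 in Cis9w and 0.137 in CT9w, with 0 of 5 called and with Flt1 at a ratio of 2.30 (1.75 to 3.07). The 5 immune markers summed to 0.0801 in Cis9w and 0.114 in CT9w, with 0 of 5 called, with Ptprc at a ratio of 2.87 (1.44 to 6.37) and Csf1r at 0.496. Their part in the result was not tested.

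Among cadherins at the floor, the interval of the ratio lay below 1 for Cdh4, Cdh13 and Cdh2. Cdh4, which encodes R-cadherin, averaged 0.0850 in Cis9w and 0.160 in CT9w, a ratio of 0.529 (0.446 to 0.628). Cdh13, the lipid-anchored T-cadherin, averaged 0.0526 in Cis9w and 0.0928 in CT9w, a ratio of 0.567 (0.454 to 0.708; p = 0.813 in the authors' deposited table). Cdh2 averaged 0.154 in Cis9w and 0.194 in CT9w, a ratio of 0.793 (0.689 to 0.912). None of the 3 genes passed. Cdh16 averaged 0.186 in Cis9w and 0.148 in CT9w, a ratio of 1.25 (1.08 to 1.46) at a deposited p of 1.

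Cdh5, Itga8 and Itgb2, known from other cell types, had few UMIs in the proximal tubule pools. Cdh5, the VE-cadherin of endothelium, had 15 UMIs in Cis9w and 5 in CT9w. Itga8, a chain of mesangial and other stromal cells, had 12 UMIs in Cis9w and 1 in CT9w, a ratio of 7.18 with an interval of 1.06 to 307. The beta2 chain gene Itgb2 had 3 UMIs in Cis9w and 1 in CT9w. These counts are too small to order the groups.

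Other markers in the same pools bear on what the pools hold. The 5 injured tubule markers summed to 1.57 in Cis9w and 0.738 in CT9w, and 5 of 5 were called higher. Sema5a gave most of this sum, at 1.16 in Cis9w and 0.613 in CT9w. The 5 parietal epithelial markers summed to 1.88 in Cis9w and 1.43 in CT9w, and 2 of 5, Akap12 and Cp, were called higher. Pax8, which was present in all proximal tubule clusters, gave most of this sum, and the other 4 markers summed to 0.543 in Cis9w and 0.197 in CT9w. Thick ascending limb markers, whose cluster also held Cdh6 and Cdh3, summed to 3.06 in Cis9w and 3.29 in CT9w, with 0 of 5 called. Cldn10, which did not pass in TAL, gave most of this sum, and the other 4 markers summed to 0.951 in Cis9w and 1.37 in CT9w. Markers of the distal convoluted and connecting tubule, where Itga6 was also high, summed to 1.42 and 2.28 in Cis9w and to 1.36 and 1.73 in CT9w, with 0 called. Wnk1 gave most of the distal convoluted sum, at 0.898 in Cis9w and 0.799 in CT9w. Among connecting tubule markers, Slc8a1 averaged 1.32 in Cis9w and 0.727 in CT9w, and Kl 0.716 and 0.808. Podocyte markers, beside Itga3, summed to 0.0961 in Cis9w and 0.0519 in CT9w, with 0 of 5 called. No listed marker was at 0 in both pools. The part of these cell types in the values of Cdh6, Cdh3, Itga6 and Itga3 was not tested, and more nuclei of a kind cannot be told apart from more RNA per nucleus in a pooled average.

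Ligands and cytoplasmic partners of these receptors were read from 4 lists. For all 4 lists the background is the share of all genes that rose (0.995%) or fell (1.14%) at a deposited p under 0.05. Of 39 measured integrin ligands, 4 rose in Cis9w and 1 fell. Vcam1, the ligand of alpha4 and alpha9 integrins and also an injury marker, averaged 0.0709 in Cis9w and 0.00164 in CT9w (217 and 3 UMIs), with p = 8.84e-12 in the authors' deposited table. Thbs1, encoding thrombospondin 1, averaged 0.0219 in Cis9w and 0.00491 in CT9w, with p = 0.0438 in the authors' deposited table. It lay below the expression floor, with 67 UMIs in Cis9w and 9 in CT9w. Spp1, encoding osteopontin, averaged 0.348 in Cis9w and 0.127 in CT9w (p = 0.000134 in the authors' deposited table). Icam1, the ligand of beta2 integrins, was the remaining rise. Lamb3, a laminin beta chain of epithelial basement membranes, fell to 0.0265 in Cis9w, against 0.0568 in CT9w (p = 0.0373 in the authors' deposited table).

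Among 34 integrin adaptors and signalling genes, 0 rose and 1 fell. This was Apbb1ip, encoding the talin-binding adaptor RIAM, with 40 UMIs in Cis9w and 160 in CT9w (p = 5.42e-13 in the authors' deposited table). Among 25 measured catenins and cadherin partners, 0 rose and 1 fell, Ctnna2, the alpha-catenin of neurons, which averaged 0.358 in Cis9w and 1.46 in CT9w (p = 7.90e-12 in the authors' deposited table). The catenin genes Ctnnb1 and Ctnna1 did not pass, with ratios of 0.886 (0.773 to 1.02) and 1.07 (0.993 to 1.16). Of the 9 measured cadherin repressors and mesenchymal genes, 0 passed in either direction. Their log2 fold change was positive for 7, and 3 reached the floor defined above. Some positive signs rest on few UMIs in Cis9w and CT9w: Snai1 (1 and 0), Snai2 (1 and 0) and Acta2 (5 and 1). Fn1 had 41 UMIs in Cis9w and 3 in CT9w, a ratio of 8.18 (2.61 to 41.3; p = 0.100 in the authors' deposited table). Zeb1 averaged 0.330 in Cis9w and 0.213 in CT9w, a ratio of 1.55 (1.37 to 1.74). Vim averaged 0.00948 in Cis9w and 0.00382 in CT9w, a ratio of 2.48 (1.06 to 6.71). Zeb1 and Vim had deposited p-values above 0.4. Tcf4 had a ratio of 0.916 (0.856 to 0.981).

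Across the 17 clusters, 34 of 47 members passed as higher than in all other nuclei in at least 1 cluster. Calls are from the authors' deposited table, where 32.3% of all 24468 genes, at any UMI count, passed in this way. Of the 34, 18 passed in 1 cluster only, and the share of all genes that did so was not computed. The clusters were built from the same nuclei and genes, so these counts are a description. Of the 47, 37 had at least 10 UMIs in some cluster and 8 had at least 10 in all 17. By count of members passed, Immune cells held 12 (4.25% of all genes passed there), PT-injury/repair 11 (4.61%) and Mixed-1 10 (6.16%). PT-S3-2 held 4 (3.49%). TAL (5.24%), DCT+CNT (3.9%), EC1 (3.39%), EC2 (5.84%), IC-A/IC-B (3.27%) and Podocyte (1.74%) held 3 each. PT-S1 (2.3%) and PC (3.14%) held 2, and CNT (1.43%) held 1. Members numbered 0 in PT-S2/S3, PT-S3-1, PT-S2 and mixed-2, where 1.49%, 0.327%, 0.74% and 0.0899% of all genes passed.

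**Figure D2:**
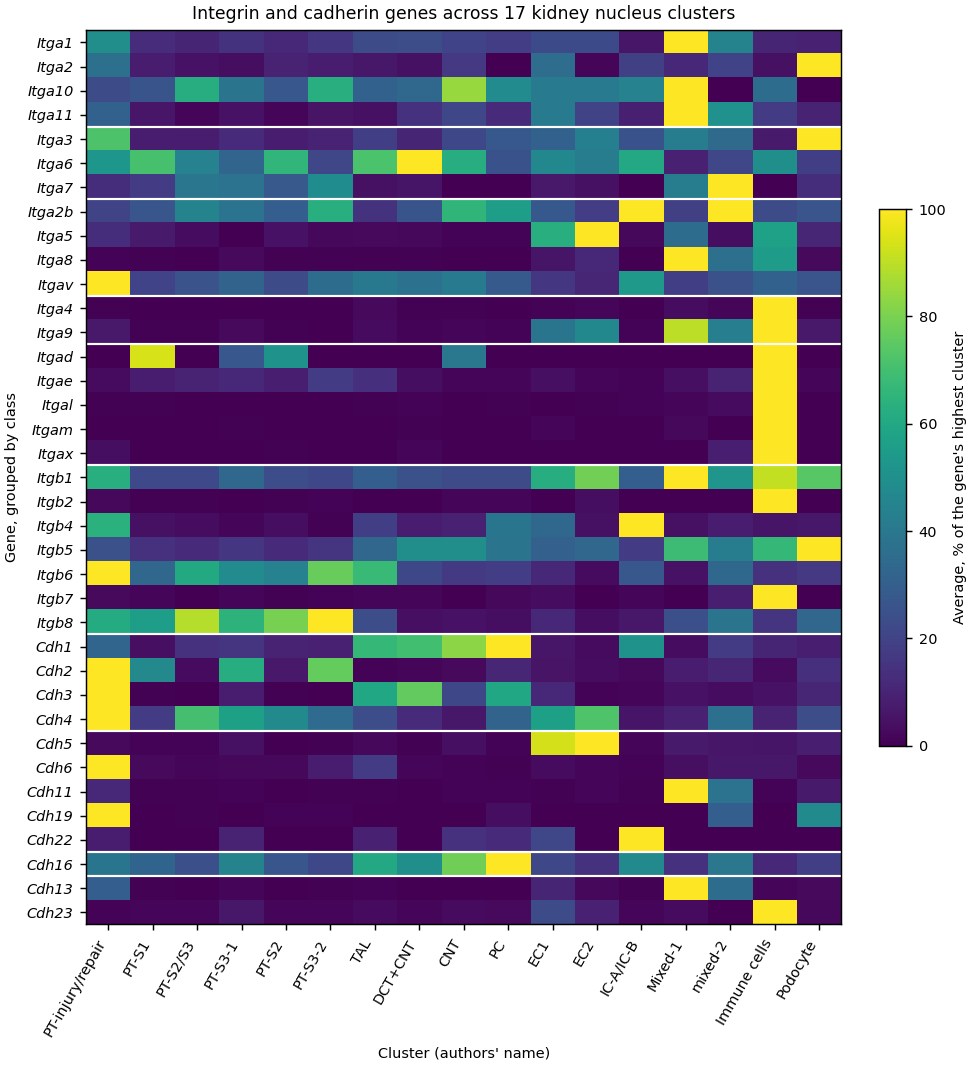
Averages of the 37 members with at least 10 UMIs in some cluster, each as a percent of that gene's highest cluster (colour), with clusters as columns and genes grouped by class between the white lines. The leukocyte alpha chains are highest in Immune cells, for Itgad on 1 UMI there against 14 in PT-S1, and 7 members, among them Cdh6, Cdh3 and Itgav, peak in PT-injury/repair.

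The highest averages fell in 3 clusters for most detected members. Of the 37, 10 were highest in Immune cells, 7 in Mixed-1 and 7 in PT-injury/repair. The share of all genes with their highest average in each cluster was not computed, so these counts have no background. Immune cells held 363369 UMIs, and 1 UMI there is an average of 0.00553, so a few UMIs can make it the highest. The 7 of PT-injury/repair were Cdh2, Cdh3, Cdh4, Cdh6, Cdh19, Itgav and Itgb6. The 7 of Mixed-1 were Cdh11, Cdh13, Itga1, Itga8, Itga10, Itga11 and Itgb1. Podocyte held 3 highest averages (Itga2, Itga3 and Itgb5).

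Several leukocyte chains passed in Immune cells. Itgam, the alpha chain of complement receptor 3, averaged 0.199 (0.139 to 0.275; 36 UMIs) there and at most 0.00447 elsewhere. Itga4 averaged 1.11 there and at most 0.0380 elsewhere. Itgae, the alpha chain of the E-cadherin receptor of T cells, averaged 0.160 there (29 UMIs) and 0.0285 in PT-S3-2 (52 UMIs), and passed in both clusters. Itga8 averaged 0.575 in Mixed-1 and 0.315 (57 UMIs) in Immune cells, a ratio of 1.82 (1.36 to 2.48), and passed in both. The 5 stromal markers summed to 4.43 in Mixed-1 and 0.138 in Immune cells. Itga9 averaged 1.24 in Immune cells and 1.11 in Mixed-1, which do not differ beyond counting error (1.11; 0.945 to 1.30).

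Cdh5 passed in the endothelial clusters only, while the podocyte chains Itga3 and Itga2 also passed in PT-injury/repair. Itga5 passed in EC1 and EC2 but also in Immune cells and Mixed-1. Cdh5 averaged 0.379 in EC2 and 0.355 in EC1, which do not differ beyond counting error, since their intervals are 0.325 to 0.440 and 0.292 to 0.428. The next highest, Podocyte, was at 0.0312. Itga3, whose loss disturbs podocyte foot processes in mice, was highest in Podocyte at 0.390, with PT-injury/repair next at 0.281. Itga2 averaged 0.119 in Podocyte (38 UMIs), against 0.0440 in PT-injury/repair.

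Stromal nuclei carried Cdh11 and Cdh13. Cdh11 averaged 1.32 in Mixed-1 and 0.149 in PT-injury/repair, a ratio of 8.87 (7.29 to 10.9). Cdh13 averaged 2.12 in Mixed-1 and 0.634 in PT-injury/repair, a ratio of 3.35 (3.01 to 3.73). Itgb1 was highest in Mixed-1 at 0.590 and lowest in PT-S3-2 at 0.128, and was detected with at least 10 UMIs in all 17 clusters.

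Cdh1 was highest in the distal nephron and Cdh2 in proximal tubule clusters. Cdh1 averaged 1.13 in PC, 0.933 in CNT and 0.785 in DCT+CNT, against 0.370 in PT-injury/repair and between 0.0459 (PT-S1) and 0.171 (PT-S3-1) in the other 5 proximal tubule clusters. PC exceeded PT-S1 by 24.6 times (20.2 to 30.04) and PT-S3-1 by 6.58 times (5.37 to 8.11). Cdh2 was highest in PT-injury/repair at 0.372 and lowest in TAL at 0.00414. Within the proximal tubule Cdh2 was uneven, with 0.285 in PT-S3-2, 0.232 in PT-S3-1, 0.175 in PT-S1, 0.0253 in PT-S2 and 0.0105 in PT-S2/S3. PT-S3-2 exceeded PT-S2/S3 by 27.01 times (19.5 to 38.4), and PT-S1 exceeded PT-S2 by 6.90 times (5.20 to 9.32). The clusters next to each other in name thus lay on both sides of a gap. These pairs of clusters, like the other cluster ratios given here, were chosen after their values were seen. Cdh16, the kidney-specific cadherin, was spread over all tubule clusters, from 0.0944 in the lowest of the proximal ones to 0.437 in PC. PC exceeded CNT (0.343) by 1.28 times (1.04 to 1.57). Outside the tubule Cdh16 averaged from 0.0497 in Immune cells to 0.174 in mixed-2. EC1, at 0.0945, was level with the low end of the tubule range.

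**Figure D3:**
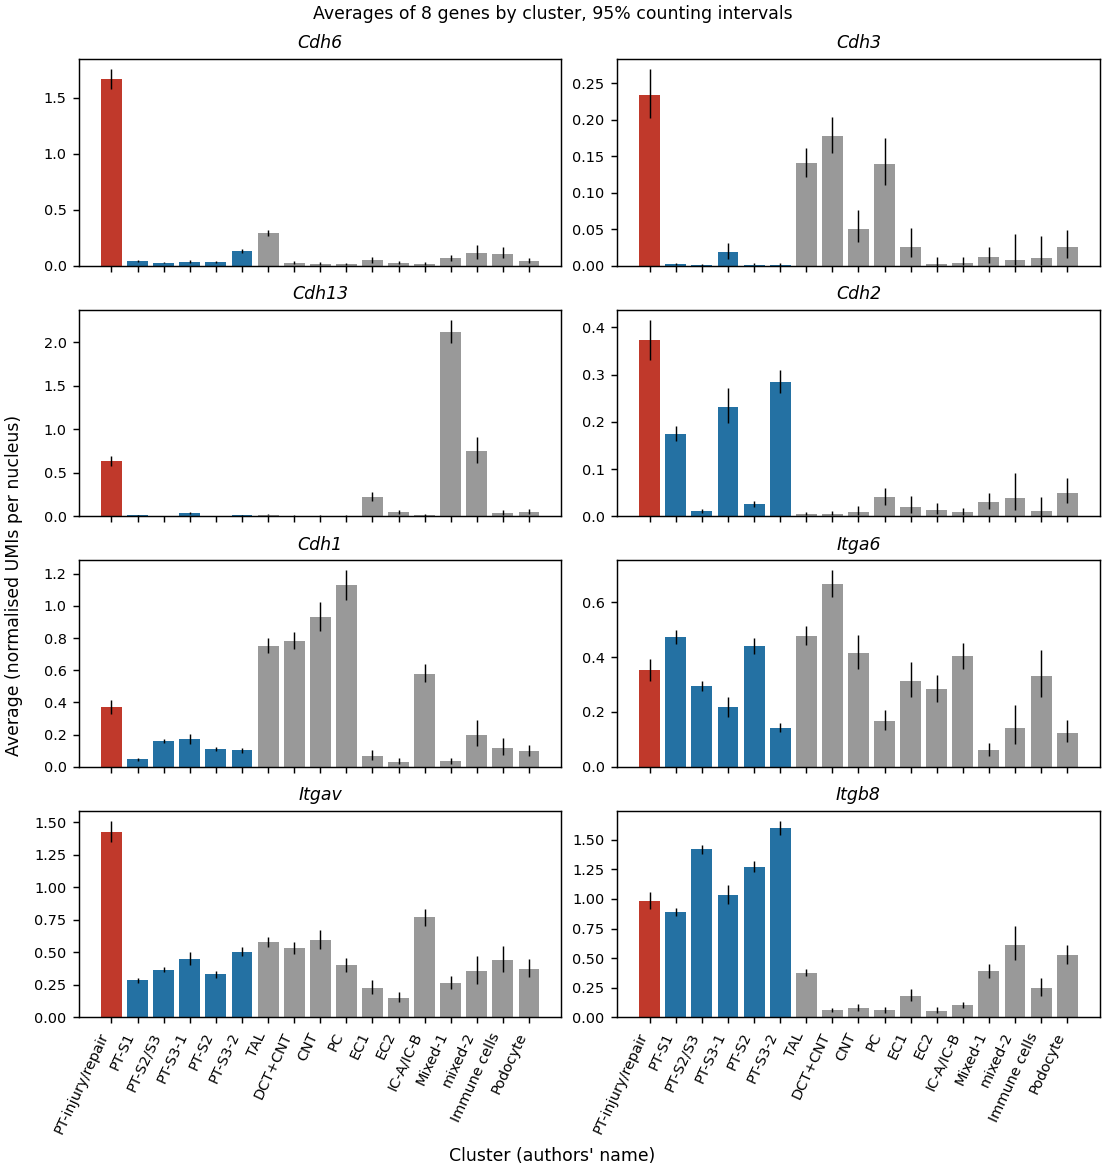
Averages (normalised UMIs per nucleus) of 8 members in the 17 clusters, with 95% counting intervals as black lines. PT-injury/repair is red, the other 5 proximal tubule clusters blue and the rest grey. Cdh6 reaches 1.67 in PT-injury/repair and 0.287 in TAL, while Itga6 is highest in DCT+CNT at 0.668.

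Itgav and its partner Itgb6 were highest in PT-injury/repair, and Itgb8 in PT-S3-2. Itgav averaged 1.42 in PT-injury/repair and 0.768 in IC-A/IC-B, its next highest. Itgb6 averaged 1.84 in PT-injury/repair and 1.41 in PT-S3-2, a ratio of 1.30 (1.22 to 1.39), and was lowest in EC2 at 0.0539. Itgb8 was highest in PT-S3-2 at 1.60, against 0.0635 in DCT+CNT, a ratio of 25.2 (19.9 to 32.3). Of 24 known alpha and beta pairs, 11 had both chains highest in the same cluster. These were the collagen and RGD pairs of beta1 with alpha1, alpha8, alpha10 and alpha11 in Mixed-1, alphav with beta6 in PT-injury/repair, and the 6 leukocyte pairs of beta2 and beta7 in Immune cells. Some of these rest on small counts. Itgad had 1 UMI in Immune cells, and its ratio to PT-S1 was 1.07 (0.0252 to 7.003). Itga10 in Mixed-1 over CNT was 1.18 (0.340 to 4.25), and Itga11 in Mixed-1 over mixed-2 was 1.98 (0.456 to 17.98). Itgb1 itself in Mixed-1 did not differ from Immune cells beyond counting error (1.10; 0.869 to 1.40).

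Itga6 had another pattern. It was highest in DCT+CNT at 0.668, followed by TAL at 0.478 and PT-S1 at 0.472, and lowest in Mixed-1 at 0.0604. PT-S1 exceeded PT-S3-2 (0.142) by 3.32 times (2.90 to 3.81). Its possible partner Itgb4 was highest in IC-A/IC-B at 0.0974 and next in PT-injury/repair at 0.0623.

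Small counts stood behind some deposited calls. In the authors' deposited table, Itgad passed in PT-S1 at an average of 0.00519, which is 14 UMIs, and it overlaps Cox6a2, 4931431B13Rik and other annotated genes on the opposite strand. Cdh22 passed in IC-A/IC-B on 11 UMIs. Calls on fewer than 10 UMIs numbered 3 of 60, those of Cdh17 in Immune cells on 4, Cdh12 in Mixed-1 on 6 and Cdh20 in IC-A/IC-B on 9.

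PT-injury/repair differed from the other 5 proximal tubule clusters in most of these receptors. A minimum of 10 UMIs over the 6 clusters was met by 39 members. Of these, 23 (59%) had a ratio of at least 2 in PT-injury/repair over the other 5 pooled, against 24.3% of all genes. A ratio of 0.5 or less was found for 5 (12.8%, against 14.3% of all genes). The median ratio was 2.74, against 1.14 for all genes. The minimum includes PT-injury/repair, so a member can reach it through that cluster, as Cdh19 did (43 UMIs there, 3 in the other 5). Among the 23, the intervals of Itgb7 (0.348 to 16.8) and Itga4 (0.544 to 6.23) held 1. Among the 5, those of Cdh23, Itgad and Cdh12 held 1, on 1, 0 and 0 UMIs in PT-injury/repair. The cluster was defined from the same nuclei, so these values describe it.

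Cadherins had the highest ratios. Cdh19, known from nerve sheath and neural crest cells, had 43 UMIs in PT-injury/repair and 3 in the other 5 clusters together, a ratio of 193 (61.7 to 971). Cdh3 averaged 0.234 in PT-injury/repair and 0.00191 in the other 5, a ratio of 123 (78.2 to 203). Cdh13 averaged 0.634 in PT-injury/repair and 0.00826 in the other 5, a ratio of 76.7 (61.3 to 96.9). Cdh6 averaged 1.67 in PT-injury/repair and 0.0492 in the other 5, a ratio of 33.9 (30.7 to 37.5). Cdh11 followed at 20.8 (15.5 to 27.9). Each of these 5 intervals lies far above 1.

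Matrix receptors were also higher there, by smaller ratios. Itgb4 had 20.2 (12.8 to 32.1), Itga9 10.8 (7.70 to 14.97), Itga3 8.64 (7.29 to 10.2), Itga2 5.32 (3.51 to 7.91), Itga1 4.00 (3.76 to 4.25) and Itgav 3.87 (3.63 to 4.13). Itgb1 had 2.74 (2.42 to 3.10) and Itgb6 1.90 (1.80 to 2.01). Itga6 was level at 1.04 (0.924 to 1.18), Itgb8 was lower at 0.776 (0.722 to 0.834), and Itga7 was at 0.389 (0.125 to 0.925) on 5 UMIs in PT-injury/repair. Epithelial Cdh1 was higher in PT-injury/repair than in the other 5 pooled, at 0.370 and 0.114, a ratio of 3.24 (2.85 to 3.68), as was Cdh2 at 3.31 (2.91 to 3.76).

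Markers of other cell types in this cluster stand beside those ratios. Injured tubule markers summed to 5.64 in PT-injury/repair, and parietal epithelial markers to 4.80 with 4 of 5 passed. Thin limb markers summed to 0.557 with 3 of 5 passed. Stromal markers summed to 0.176 in PT-injury/repair with 0 of 5 passed, to between 0.0335 and 0.168 in the other 5 proximal tubule clusters, and to 4.43 in Mixed-1, where Cdh11 and Cdh13 were highest. Without Meis1 the stromal sum was 0.0525 in PT-injury/repair, between 0.00852 and 0.0361 in the other 5, and 2.29 in Mixed-1. The part of parietal, thin limb or stromal nuclei in these ratios was not tested.

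**Figure D4:**
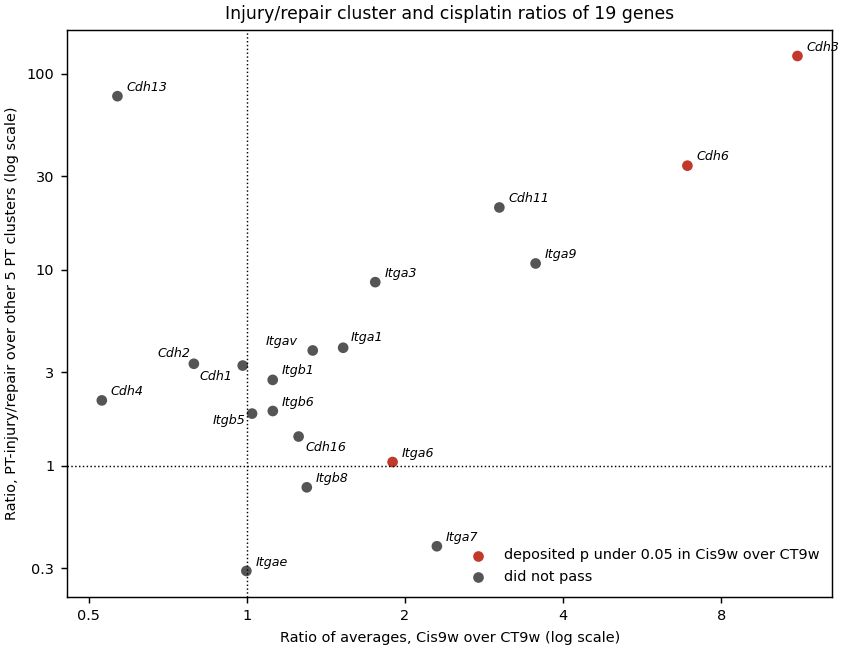
Ratio of averages in Cis9w over CT9w (horizontal, log axis) against the ratio in PT-injury/repair over the other 5 proximal tubule clusters (vertical, log axis) for the 19 members at the expression floor, with dotted lines at 1. Cdh3 and Cdh6 are high on both axes, Cdh13 is at 76.7 on the vertical and 0.567 on the horizontal axis, and Itga6 is at 1.04 on the vertical and 1.89 on the horizontal axis.

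The genes higher in the injury cluster did not all have the same sign in Cis9w. Of the 23 members with a ratio of at least 2, 14 had a positive log2 fold change in Cis9w (60.9%, against 69.5% of all such genes) and 2, Cdh6 and Cdh3, were called higher (8.7%, against 3.78%). Some of the 9 negative signs rest on few UMIs in Cis9w and CT9w: Cdh19 (2 and 1), Itga11 (3 and 2), Itgb7 (3 and 3) and Cdh20 (1 and 7). Cdh1 and Itga2, also negative, were level at ratios of 0.982 (0.859 to 1.12) and 0.998 (0.606 to 1.67). Positive signs on few UMIs included Itga4 (14 and 1) and Itgb3 (10 and 1). Cdh13 was 76.7 times higher in PT-injury/repair and had a Cis9w ratio of 0.567, and Cdh4 was 2.15 times higher and had a Cis9w ratio of 0.529. Conversely, Itga6 was called higher in Cis9w with a cluster ratio whose interval holds 1. The tables share nuclei to an extent that the sources used here do not give.

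Cdh19 also separated the tables. It had 46 UMIs over the 6 proximal tubule clusters, but 2 in the Cis9w pool and 1 in the CT9w pool, 6.52% of the cluster count. The pools together held 57.6% as many UMIs as those clusters over all genes, and the 28 members with at least 30 UMIs there had a median of 57.1% and a highest value of 62.4%. Itga8 was next lowest at 30.95% (13 of 42 UMIs), and Cdh3 and Cdh13 were at 55.4% and 54.3%. Why Cdh19 was nearly missing from the pools was not tested.

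The genes sit in a few groups on the chromosomes. Chromosome 8 holds 7 of the cadherin members and Itgb1, and chromosome 7 holds Itgal, Itgam, Itgax and Itgad, of which Itgam and Itgax are neighbours with a shared highest cluster, Immune cells. Itga2 and Itga1 are adjacent on chromosome 13 but were highest in Podocyte and Mixed-1.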

How the data were processed

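Kidney nuclei of 4 samples were counted by the authors. The submitters' processing notes name mm10 as build and Cell Ranger 5.0.1. The clustering, filters, doublet treatment and p-value test were not given in the sources used here. Per gene and pool, the authors deposited averages, a signal of normalised UMIs per nucleus, scaled to the same total in every column of a table (2797 for proximal tubule, 2008 for clusters). A deposited log2 fold change and p-value stand beside each, per the file headers. Levels were not compared between the tables or between genes.

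UMI sums were recovered as each average divided by the step of its column (99.995% or more of genes came out whole, with a tolerance of 0.1 UMI), and adding 1 rebuilt the proximal tubule log2 fold changes within 0.0162. Ratios have Clopper-Pearson and averages exact Poisson 95% intervals (scipy 1.17.1), tested on simulated data. Calls used the authors' deposited p under 0.05, in clusters also a log2 fold change of at least 1. No test across samples was possible.

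Members, the 4 partner lists, the 13 marker lists and the tests were chosen with earlier results of these data known. Genes named are called members, the 5 largest uncalled changes at the floor, each cluster's leading member, the 5 highest injury ratios and 12 tubule, endothelial and matrix genes. Other genes, cluster pairs and the 3 promoters were chosen after their values were seen. Positions are from GENCODE M21 (GRCm38).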

Additional observations from a re-analysis of the deposited data

How the results depend on the processing

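Of 24 recomputed summary values, 0 reversed. For members at the floor the log2 fold changes had a mean of 0.64, against a median of 0.38, which was 0.24 with a floor at the 75th percentile and 0.26 with no floor. A ratio of at least 4 left 12 members higher in PT-injury/repair, against 23 at a ratio of at least 2. At p under 0.01 the partner lists held 4 calls, against 7. Members called higher in the proximal tubule stayed between 2 and 3 and those called lower at 0 under all settings, with Itga6 lost at p under 0.01 and when a log2 change of 1 was required, and Cdh3 below a floor at the 75th percentile. Settings on very small counts, the partner lists at p under 0.01 and the excess over each of the 5 clusters (16 members) were added after seeing the data. No replicate could be left out, because no column is labelled with a sample. No paired analysis was possible because no column carries a replicate number. Depth limits the 27 members below the floor.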
